A study of Mus musculus with 4 samples.

Results

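IL-25, its receptor subunit and the enzymes that make leukotrienes, prostaglandins and acetylcholine are the best known means by which tuft cells act on other cells. The levels of 9 such genes (Il25, Il17rb, Alox5, Alox5ap, Ltc4s, Ptgs1, Ptgs2, Hpgds and Chat), of 31053 genes counted in single thymic epithelial cells (TECs) of the mouse, are described here. They were chosen by their function in tuft cells, with earlier results of these data known, and each matched 1 gene by its symbol. Of the 9 genes, 8 were concentrated in tuft-like cells in all 4 conditions, a description of genes so chosen and not a test. The exception was Ptgs2, whose transcripts lay mainly in Aire+ mTEC-like cells and in other classes of medullary TECs (mTECs).

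Tuft cells are rare chemosensory epithelial cells. In the gut they release IL-25, which acts on group 2 innate lymphoid cells, and they make cysteinyl leukotrienes and prostaglandin D2, lipid mediators derived from arachidonic acid. Thymic tuft cells are a kind of mTEC that carries this programme inside the thymic medulla.

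The cells came from C57BL/6 mice 6 weeks of age and were sorted as EpCAM+ CD45- TER119- TECs, with 1 library of 3 pooled mice per condition. WT-Control and WT-RANKL-Ab mice were wild type, and Cd40-/- Control and Cd40-/- RANKL-Ab mice lacked Cd40 in every cell. The RANKL-Ab groups, 2 weeks before analysis, received a neutralizing antibody to RANKL under the skin at 5 mg/kg, and the control groups received control IgG. RANKL and the CD40 ligand are signals that drive mTEC maturation, and the libraries address what remains of the medulla without either or both. With 1 library per condition no difference between conditions can be tested. All intervals given are exact 95% intervals that cover counting error only, not differences between mice, sorts or libraries. Those of levels and of ratios count each UMI as independent and leave out variation between cells, so they are likely too narrow.

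UMIs (unique molecular identifiers) count captured mRNA molecules, and a cell was kept if it had 200 or more genes and no more than 25% of its UMIs from mitochondrial genes. That left 10218 and 7164 cells of WT-Control and WT-RANKL-Ab, and 8591 and 2082 of the corresponding Cd40-/- libraries. Libraries held 19175068 to 95607338 UMIs. Levels are given as CPM, the UMIs of a gene per 1000000 UMIs of the same cells. Cd40 was at 110 CPM over all cells of WT-Control and at 28.8 CPM over those of WT-RANKL-Ab, against 5.75 and 4.75 CPM in the libraries labelled Cd40-/- Control and Cd40-/- RANKL-Ab. Cell barcodes recurred between libraries, 17 to 116 of them in 5 of the 6 pairs and 205 between the Cd40-/- libraries, where their median was 723 UMIs in Cd40-/- Control and 24073 UMIs in Cd40-/- RANKL-Ab. Shared barcodes held 2.21%, 3.02% and 2.72% of the UMIs of the first 3 libraries and 28.2% of those of Cd40-/- RANKL-Ab. Few of them were tuft-like, 2 in each library for the Cd40-/- pair, so that values in tuft-like cells moved little without them, while values over all cells of Cd40-/- RANKL-Ab are given with and without them.

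A cell was called tuft-like if at least 10 of its UMIs per 10000, from at least 3 genes, came from 12 tuft markers that include no member, such as the ion channel Trpm5, the actin regulator Avil and the transcription factor Pou2f3. All 12 markers had UMIs in the tuft-like cells of every library. They summed to 7892, 10712, 7843 and 12387 CPM in tuft-like cells, with the wild-type libraries before the Cd40-/- ones and each control before its RANKL-Ab library, an order kept throughout, against 72.7 to 109 CPM in other cells. There were 547 tuft-like cells in WT-Control (5.35% of cells, Clopper-Pearson interval 4.92 to 5.81%) and 669 in WT-RANKL-Ab (9.34%, 8.67 to 10.0%). Cd40-/- Control had 305 (3.55%, 3.17 to 3.96%) and Cd40-/- RANKL-Ab 62 (2.98%, 2.29 to 3.80%). Per 100 CCL21+ mTEC-like cells, there were 14.3, 17.5, 13.3 and 7.66 tuft-like cells. WT-RANKL-Ab was highest on both scales, while the Cd40-/- libraries, near each other as shares of all cells, lay farther apart on this one. Both scales are relative to other sorted cells, and Aire+ mTEC-like cells were 24.8% of cells in WT-Control and 2.67% in WT-RANKL-Ab. From their own clusters, the authors reported a milder reduction of mTEC subsets, tuft-like ones included, in WT-RANKL-Ab. Whether the thymus held more tuft cells was not tested. Few cells lay near the limit of the gate, 26, 14, 22 and 0 within it at under 20 marker UMIs per 10000 and 33, 18, 17 and 0 outside it at 5 to 10.

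Some tuft-like cells also carried markers of another class. They were 29.4%, 19.1%, 23.3% and 11.3% of tuft-like cells, and the further gate was most often that of CCL21+ mTECs (101, 104, 29 and 5 cells) or Aire+ mTECs (69, 18, 25 and 0 cells). Doublets and cells of mixed state cannot be told apart here. The members were read again without these cells, a choice made after the data were seen. Their sum was then 4433, 4987, 4218 and 4613 CPM in tuft-like cells, against 3227, 4276, 3305 and 4298 CPM with them, and for each member the ratio to the matched control library is given both ways.

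Blood cells make the same lipid mediators, so their markers were read in the tuft-like cells. A list of 7 mast cell and basophil genes summed to 11.6, 0.444, 3.09 and 0 CPM, and Cpa3, Ms4a2 and Mcpt8 had no UMI in any tuft-like cell. The mast cell proteases Cma1, Mcpt4 and Tpsb2 had 23, 23 and 16 UMIs in all, of which 20, 21 and 14 were in WT-Control. The myeloid list of 8 genes summed to 238, 36.7, 225 and 6.78 CPM, less than its 586, 116, 462 and 15.9 CPM in other cells. The eosinophil list of 4 genes ranged from 9.04 to 48.9 CPM and the thymocyte list of 8 genes from 11.8 to 54.2 CPM. A B cell list of 4 genes was higher in tuft-like cells, 102 to 164 CPM against 4.33 to 32.8 CPM in other cells, and consisted almost wholly of Cd79b, which had 1515 UMIs in tuft-like cells. Tuft-like cells with no UMI of any of these genes numbered 167, 253, 139 and 28. Cells with a UMI of Cd79b, at 116, 162, 90.5 and 113 CPM in tuft-like cells, were thus left out too. Whether its UMIs came from blood cells was not tested, so this is not a clean filter for blood cells. Siglecf, on the eosinophil list, had 86 UMIs in tuft-like cells and 245 in other cells. Ptprc, which encodes CD45 and was on none of these lists, was higher in tuft-like cells in every library. It was at 33.6, 58.4, 54.0 and 74.5 CPM there and at 4.51, 23.7, 40.6 and 58.1 CPM in other cells. The source of these UMIs was not tested either.

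**Figure D1:**
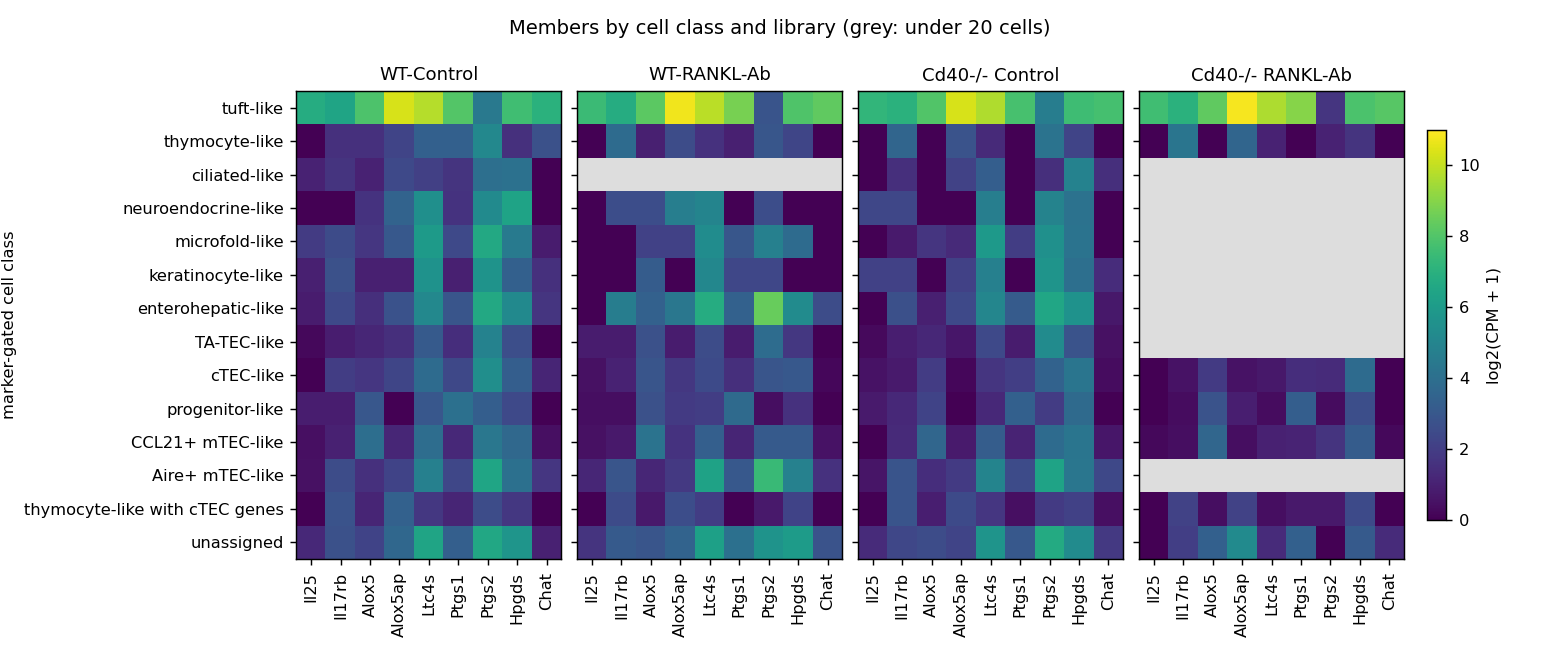
Level of each member (columns, log2(CPM + 1), colour) in each marker-gated cell class (rows) of the 4 libraries, with classes under 20 cells in grey. The tuft-like row is bright for 8 members and darker for Ptgs2, which is bright in Aire+ mTEC-like, enterohepatic-like and unassigned cells of the 3 libraries that hold the first 2 classes.

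Each library was first read on its own for where the members lie. On the scale log2(CPM + 10), 8 of the 9 members were past 4-fold higher in tuft-like cells than in the other cells in each of the 4 libraries, and they were Il25, Il17rb, Alox5, Alox5ap, Ltc4s, Ptgs1, Hpgds and Chat each time. Of all genes with at least 20 UMIs, 1.10%, 2.21%, 1.27% and 3.03% were past this limit in the 4 libraries. The median difference of the members was 3.63, 4.17, 4.18 and 4.39 on that scale, against -0.04, -0.04, -0.06 and -0.12 for all genes. Because the members were chosen as tuft cell genes, these values are a description and not a test.

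Il25 (chr14:54932695-54935837, plus strand, GRCm38) encodes the cytokine itself. In tuft-like cells it stood at 110 CPM (Poisson interval 101 to 120) in WT-Control and 179 CPM (167 to 192) in WT-RANKL-Ab, with 152 CPM (135 to 171) in the Cd40-/- Control library and 199 CPM (159 to 245) in the Cd40-/- RANKL-Ab library. WT-Control was the lowest, and the intervals of the other 3 libraries overlapped one another. The ratio to the matched control library was 0.70 on the log2 scale (0.54 to 0.86) in wild-type mice and 0.38 (0.02 to 0.73) in Cd40-/- mice. The second ratio did not hold, since it came to -0.07 (-0.48 to 0.32) without cells that pass another gate, where the first was 0.54 (0.35 to 0.73).

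Nearly all Il25 transcripts lay in tuft-like cells, 91.9%, 97.5%, 92.8% and 98.9% of the UMIs of the 4 libraries. Other cells held 47, 21, 23 and 1 UMIs, and no other class reached 5 CPM. To compare shares of cells at 1 depth, each cell was thinned to 2000 UMIs and shallower cells were left out, which kept 505, 578, 273 and 56 tuft-like cells. A UMI of Il25 was then found in 20.2% (16.8 to 24.0%), 26.5% (22.9 to 30.3%), 19.8% (15.2 to 25%) and 26.8% (15.8 to 40.3%) of them. Unthinned shares were 41.5%, 48.4%, 35.7% and 50%, at median depths of 7171, 6080, 5440 and 6778.5 UMIs. In CCL21+ mTEC-like cells the thinned share was at most 0.121%. Whether these few UMIs came from free RNA, from mixed cells or from the cells themselves was not tested.

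Il17rb (chr14:29996135-30008896, minus strand) encodes the receptor subunit that binds IL-25. Its level in tuft-like cells was 85.8 CPM (77.7 to 94.5) and 112 CPM (102 to 122) in the wild-type libraries, and 130 CPM (115 to 147) and 131 CPM (99.5 to 169) in the Cd40-/- libraries. WT-Control was again the lowest, and the other 3 libraries overlapped. The log2 ratio of WT-RANKL-Ab to WT-Control was 0.38 (0.19 to 0.57), and 0.23 (0.00 to 0.45) without cells that pass another gate. In Cd40-/- mice no direction can be read, since the ratio was 0.01 (-0.43 to 0.43), -0.44 (-0.94 to 0.04) without cells that pass another gate and 0.78 (0.12 to 1.42) without cells that have a UMI of a blood cell marker. Ligand and receptor subunit were thus read in the same class, and a UMI of Il17rb was found in 18%, 22.3%, 22.3% and 26.8% of thinned tuft-like cells.

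Unlike Il25, Il17rb had many UMIs outside the tuft-like class, which held 60.6%, 85.5%, 53.2% and 63.0% of them. Aire+ mTEC-like cells were at 4.83, 6.48 and 6.35 CPM in the 3 libraries that hold them. Thymocyte-like cells, which carry T cell genes such as Cd3g and Lck, were at 13.5, 11.2 and 18.6 CPM in the last 3 libraries, from 14, 15 and 17 UMIs, and had 1 UMI in WT-Control. Il17rb overlaps Actr8 on the opposite strand.

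**Figure D2:**
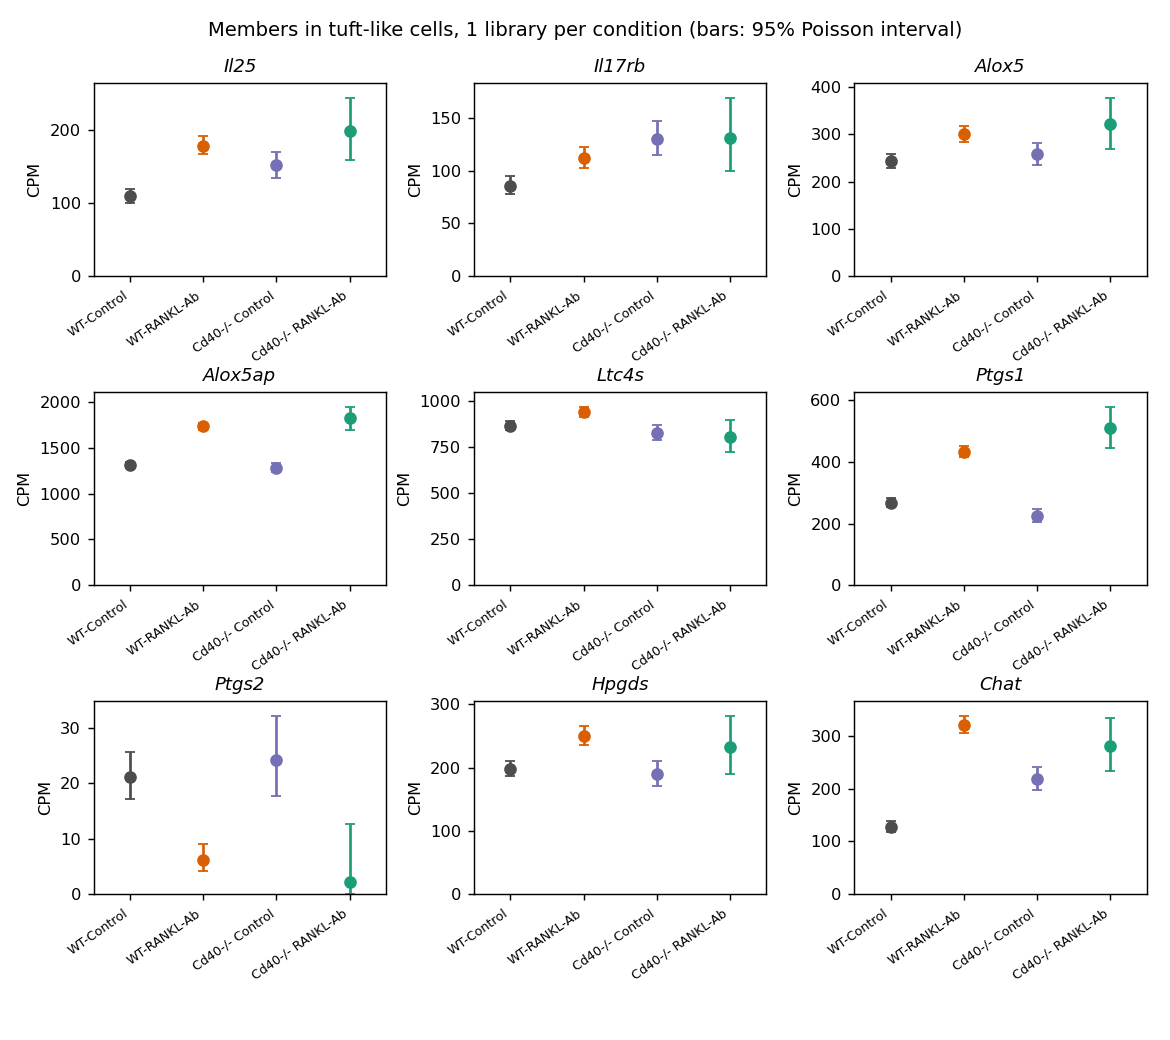
Level of each member in tuft-like cells (CPM, linear axes from 0) in the 4 libraries, with exact 95% Poisson intervals as bars and 1 library per point. Alox5ap, Ptgs1 and Chat are higher in WT-RANKL-Ab than in WT-Control, Ltc4s is nearly level, and Ptgs2 is lower in both libraries of antibody-treated mice.

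Leukotriene synthesis starts with 5-lipoxygenase, the product of Alox5 (chr6:116410077-116461178, minus strand). Tuft-like cells had Alox5 at 244 CPM (230 to 258), 300 CPM (284 to 317), 258 CPM (236 to 281) and 321 CPM (270 to 378). The library of antibody-treated mice was the higher in each genotype, by log2 ratios of 0.30 (0.19 to 0.42) and 0.32 (0.04 to 0.59). Neither held without cells that pass another gate, where the ratios were 0.07 (-0.05 to 0.20) and -0.02 (-0.33 to 0.28).

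Alox5 was the member for which CCL21+ mTEC-like cells, the main class of less mature mTECs, stood next to tuft-like cells in every library, among classes of at least 20 cells. Their level was 14.6, 17.2, 11.3 and 11.4 CPM, and they held 76.8%, 81.6%, 62.5% and 63.3% of the Alox5 UMIs outside tuft-like cells. After thinning, 3.14% (2.58 to 3.78%) of these cells in WT-Control had a UMI, against 0.373% (0.171 to 0.707%) of Aire+ mTEC-like cells. The shares in CCL21+ mTEC-like cells of the other libraries were 3.58%, 3.05% and 3.47%, so that these shares differed little, whereas by level the WT-RANKL-Ab interval of 15.6 to 19 CPM lay above that of Cd40-/- Control, 9.59 to 13.2 CPM.

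Alox5ap (chr5:149264767-149288153, plus strand) encodes FLAP, the membrane protein that 5-lipoxygenase works with. It stood at 1307 CPM (1275 to 1340) in tuft-like cells of WT-Control, 1735 CPM (1697 to 1774) and 1280 CPM (1231 to 1332) in the next pair of libraries and 1818 CPM (1695 to 1948) in Cd40-/- RANKL-Ab. The levels paired by antibody, with no overlap between the pairs, at log2 ratios of 0.41 (0.36 to 0.46) in wild-type and 0.51 (0.39 to 0.62) in Cd40-/- mice. Both ratios were smaller without cells that pass another gate, 0.15 (0.10 to 0.20) and 0.24 (0.11 to 0.36).

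Tuft-like cells held 95.3%, 98.4%, 95.2% and 94.0% of the Alox5ap UMIs, and other cells were at 1.96 to 3.42 CPM. A UMI was found in 71.1% (66.9 to 75.0%), 81.0% (77.5 to 84.1%), 71.1% (65.3 to 76.4%) and 85.7% (73.8 to 93.6%) of thinned tuft-like cells. Alox5ap overlaps the antisense gene Gm19719.

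Ltc4s (chr11:50236461-50238616, minus strand) encodes leukotriene C4 synthase, which makes the parent cysteinyl leukotriene. Its tuft-like level was 866 CPM (840 to 892), 940 CPM (912 to 969), 827 CPM (787 to 869) and 806 CPM (725 to 895). The highest, WT-RANKL-Ab, was 1.09-fold above WT-Control. This small difference turned under other processing, to a log2 ratio of -0.12 (-0.19 to -0.05) without cells that pass another gate and -0.04 (-0.10 to 0.02) with TMM scaling. Without cells that pass another gate, Ltc4s was at 1159, 1067, 1039 and 868 CPM, and Cd40-/- RANKL-Ab was the lowest. Its ratio to Cd40-/- Control was then -0.26 (-0.44 to -0.08), against -0.04 (-0.21 to 0.13) with all tuft-like cells, and that to WT-Control -0.42 (-0.59 to -0.25), against -0.10 (-0.26 to 0.05). After thinning, 74.9%, 80.6%, 73.6% and 82.1% of tuft-like cells had a UMI.

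Outside tuft-like cells Ltc4s varied much more, at 24.2, 13.4, 16.5 and 0.695 CPM, the last from 13 UMIs. The log2 ratio of Cd40-/- RANKL-Ab to Cd40-/- Control was -4.57 (-5.48 to -3.79) there. Microfold-like, keratinocyte-like, enterohepatic-like and Aire+ mTEC-like cells carried Ltc4s at 63.3, 47.2, 33.7 and 26.8 CPM in WT-Control, and these classes had 1, 8, 0 and 2 cells in Cd40-/- RANKL-Ab. WT-RANKL-Ab had 191 Aire+ mTEC-like cells against 2529 in WT-Control, and in them Ltc4s was at 80.3 CPM, a log2 ratio of 1.58 (1.30 to 1.86) to WT-Control. CCL21+ mTEC-like cells, which numbered 809 in Cd40-/- RANKL-Ab, had it at 14.4, 9.16, 8.34 and 0.992 CPM. Ltc4s overlaps the antisense gene Gm26542.

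Cyclooxygenases turn arachidonic acid into prostaglandin H2, from which the other prostaglandins are made. Ptgs1 (chr2:36230426-36252272, plus strand) encodes COX-1, the constitutive enzyme, and Ptgs2 (chr1:150100031-150108227, plus strand) COX-2, the inducible one. The distributions of these related genes were opposite, and for that contrast the 250 bases before each start are shown as RefSeq gives them on GRCm38.p6, with matches to the E-box letters CANNTG in capitals.
Ptgs1 (chr2:36230176-36230425, plus strand): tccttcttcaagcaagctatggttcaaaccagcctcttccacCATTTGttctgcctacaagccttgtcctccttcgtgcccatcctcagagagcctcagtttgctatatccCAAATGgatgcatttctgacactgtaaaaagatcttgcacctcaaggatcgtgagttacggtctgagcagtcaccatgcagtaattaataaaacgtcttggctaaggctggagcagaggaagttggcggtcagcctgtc
Ptgs2 (chr1:150099781-150100030, plus strand): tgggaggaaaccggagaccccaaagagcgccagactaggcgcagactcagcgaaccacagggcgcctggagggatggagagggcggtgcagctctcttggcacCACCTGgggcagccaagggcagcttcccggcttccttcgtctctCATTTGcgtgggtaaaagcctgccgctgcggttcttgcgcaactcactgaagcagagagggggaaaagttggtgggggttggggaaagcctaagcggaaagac
Each window held 2 matches, 208 and 139 bases before the start for Ptgs1 and 147 and 103 bases for Ptgs2, and 66.2% of 32851 windows of this length in the RefSeq table held at least 1 on either strand. G and C made up 48.0% of the Ptgs1 window and 61.6% of the Ptgs2 window, on either side of the median of 52.4%.

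Ptgs1 stood at 267 CPM (253 to 282) in tuft-like cells of WT-Control and 433 CPM (414 to 452) in those of WT-RANKL-Ab, against 225 CPM (204 to 247) and 508 CPM (444 to 579) in the Cd40-/- libraries. Both libraries of antibody-treated mice were above both control libraries, with no overlap of intervals. The log2 ratio was 0.69 (0.59 to 0.80) in wild-type mice and 1.18 (0.94 to 1.41), or 2.26-fold, in Cd40-/- mice. Without cells that pass another gate the ratios were 0.42 (0.31 to 0.54) and 1.00 (0.75 to 1.26), and without cells that have a UMI of a blood cell marker 0.36 (0.15 to 0.58) and 1.10 (0.72 to 1.48).

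Tuft-like cells held 80.5%, 93.8%, 69.8% and 81.2% of the Ptgs1 UMIs. Progenitor-like cells, which express Dcn and Ackr4, were at 15.6, 12.9, 9.27 and 8.86 CPM and CCL21+ mTEC-like cells at 1.15 to 1.41 CPM. The share of thinned tuft-like cells with a UMI was 43.6% (39.2 to 48.0%), 53.1% (49.0 to 57.2%), 35.5% (29.9 to 41.5%) and 62.5% (48.5 to 75.1%). The order of the shares was that of the levels.

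Ptgs2 had 102, 28, 47 and 1 UMIs in tuft-like cells, or 21.1 CPM (17.2 to 25.7), 6.22 CPM (4.13 to 8.99), 24.2 CPM (17.8 to 32.2) and 2.26 CPM (0.0572 to 12.6). The other cells were at 54.9, 15.8, 42.8 and 1.34 CPM, and the tuft-like class held between 1.68% and 3.87% of the UMIs. Ptgs2 was thus lower in tuft-like cells than elsewhere in the first 3 libraries, by log2 ratios of -1.38 (-1.67 to -1.09), -1.34 (-1.94 to -0.80) and -0.82 (-1.27 to -0.41), and 1 UMI leaves no reading in Cd40-/- RANKL-Ab. After thinning, 3.17% (1.82 to 5.09%) of tuft-like cells of WT-Control had a UMI, against 2.16% (1.70 to 2.71%) of CCL21+ mTEC-like and 5.53% (2.98 to 9.27%) of cTEC-like cells. In Cd40-/- Control these shares were 4.40% (2.29 to 7.55%), 1.79% (1.24 to 2.49%) and 1.40% (0.676 to 2.57%). The tuft-like intervals of these shares overlapped those of both classes in each library. By level, the tuft-like interval of Cd40-/- Control, 17.8 to 32.2 CPM, lay above the 13.4 CPM of its CCL21+ mTEC-like cells. Whether the few UMIs were background was not tested.

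Aire+ mTEC-like cells held the largest part of the Ptgs2 UMIs outside tuft-like cells in the libraries where they were numerous, 50.5%, 38.1% and 46.2%. They stood at 86.5, 172 and 82.3 CPM in these 3 libraries, and after thinning 13.8%, 13.7% and 14% of them had a UMI. Enterohepatic-like cells were at 98.3, 347 and 89.1 CPM in these libraries. Neither class had a lower level in WT-RANKL-Ab than in WT-Control, but Aire+ mTEC-like cells numbered 2529, 191, 1574 and 2 in the 4 libraries and enterohepatic-like cells 591, 45, 359 and 0.

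Other classes had Ptgs2 at a lower level in antibody-treated mice. Microfold-like cells of WT-Control had it at 97.7 CPM and those of WT-RANKL-Ab at 26.7 CPM. The level in CCL21+ mTEC-like cells was 19.5, 7.59, 13.4 and 2.15 CPM, and in tuft-like cells the log2 ratio of WT-RANKL-Ab to WT-Control was -1.76 (-2.42 to -1.15), close to the -1.80 (-1.92 to -1.68) of all other cells. Without cells that pass another gate the tuft-like ratio was -1.30 (-2.16 to -0.49), and in Cd40-/- mice, with 1 UMI in RANKL-Ab, -3.19 (-8.54 to -0.61) against -3.42 (-8.75 to -0.87) with them. Without tuft-like cells that have a UMI of a blood cell marker, the wild-type ratio was -0.67 with an interval of -2.22 to 0.82. The number of Aire+ mTEC-like cells differed along with these levels, and its part in them was not tested.

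**Figure D3:**
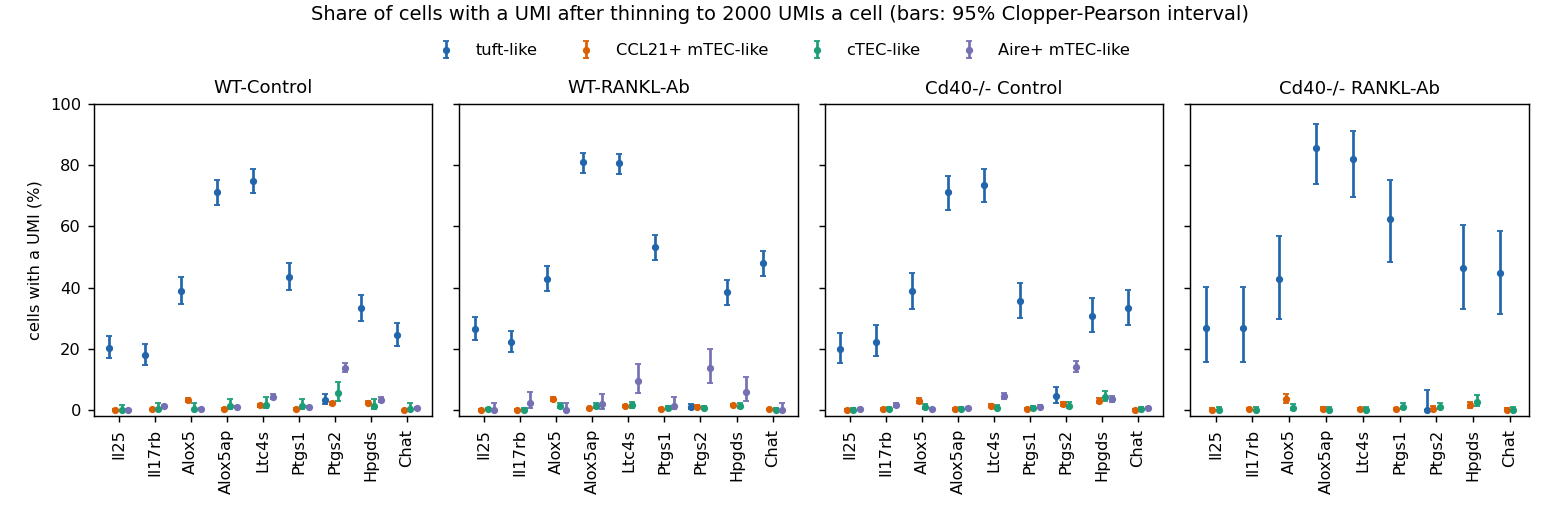
Share of cells with a UMI of each member (percent, linear axis) after thinning to 2000 UMIs a cell, in 4 classes of each library, with exact 95% Clopper-Pearson intervals as bars; Aire+ mTEC-like cells of Cd40-/- RANKL-Ab, 2 in number, are not drawn. Tuft-like cells are above the other classes for 8 members, and Aire+ mTEC-like cells are highest for Ptgs2, at 13.8%, 13.7% and 14%.

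Hpgds (chr6:65117293-65144908, minus strand) encodes the hematopoietic prostaglandin D synthase. Before its RefSeq start, by 174 bases, lies a match to the octamer ATGCAAAT, the letters that POU factors such as the tuft cell regulator Pou2f3 read.
Hpgds (chr6:65144886-65144915, minus strand, GRCm38.p6): ctttactctttATGCAAATacgttggacta
The capitals mark the octamer, searched on both strands. GENCODE starts the gene farther upstream than RefSeq, so that 178 bases of the 250-base window, the octamer among them, lie inside the gene there. It was found in 1 of the 7 members with a RefSeq window and in 526 of 32851 windows, or 1.60%. Of the other letters searched, AP-1 (TGANTCA) had 1 match, 104 bases before the start of Il17rb, in a list where 6.75% of windows held one, and the NF-kB consensus and the TATA box (TATAAA) had none in these 7 windows, against 3.90% and 12.4% of all.

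Tuft-like cells had Hpgds at 198 CPM (186 to 211), 250 CPM (235 to 265), 190 CPM (171 to 211) and 233 CPM (190 to 282). WT-RANKL-Ab was above both control libraries by interval, at a log2 ratio of 0.33 (0.21 to 0.46) to WT-Control. Without cells that pass another gate this ratio was 0.08 (-0.06 to 0.23), and that of the Cd40-/- libraries, 0.29 (-0.04 to 0.61) at first, was 0.08 (-0.28 to 0.42).

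Of the 8 members concentrated in tuft-like cells, Hpgds was the least exclusive. Tuft-like cells held 38.8%, 72.1%, 24.8% and 41.0% of its UMIs. Aire+ mTEC-like cells carried it at 15.7, 27.2 and 18.7 CPM in the 3 libraries that hold them, and cTEC-like cells, TECs of the cortex, at 8.67, 7.08, 18.1 and 13.5 CPM. The highest level outside the tuft-like class was the 82.5 CPM of 59 neuroendocrine-like cells in WT-Control, from 40 UMIs, against 0 UMIs in 42 such cells of WT-RANKL-Ab.

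Chat (chr14:32408203-32465989, minus strand) encodes choline acetyltransferase, which makes acetylcholine. It stood at 128 CPM (118 to 139) in tuft-like cells of WT-Control and 321 CPM (305 to 338) in those of WT-RANKL-Ab, with 218 CPM (198 to 240) and 280 CPM (233 to 334) in the Cd40-/- libraries. WT-Control was below the other 3 libraries with no overlap. The log2 ratio to WT-Control was 1.33 (1.19 to 1.47), or 2.51-fold, for WT-RANKL-Ab, and 0.77 (0.59 to 0.95) and 1.13 (0.84 to 1.41) for the Cd40-/- libraries, 3 ratios that share the WT-Control library. Within Cd40-/- mice it was 0.36 (0.06 to 0.65), and 0.25 (-0.07 to 0.55) without cells that pass another gate.

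The ratio of WT-RANKL-Ab to WT-Control for Chat was 1.10 (0.95 to 1.26) without cells that pass another gate, and it lay between 1.09 and 1.35 under every alternative run. The thinned share of tuft-like cells with a UMI was 24.6% (20.9 to 28.5%), 47.9% (43.8 to 52.1%), 33.3% (27.8 to 39.3%) and 44.6% (31.3 to 58.5%). These shares repeated the order of the levels, with WT-Control lowest. Tuft-like cells held 85.2%, 98.2%, 81.7% and 98.4% of the Chat UMIs. Chat shares its strand and locus with Slc18a3, the vesicular acetylcholine transporter, which had 32, 4, 4 and 1 UMIs in tuft-like cells.

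Counted against all genes, few members were past 2-fold between libraries in tuft-like cells, again on the scale log2(CPM + 10). From WT-Control to WT-RANKL-Ab, 1 of the 9 members was past 2-fold higher, Chat, where 0.322% of all genes were, and 0 were past 2-fold lower, where 1.82% were. Ptgs2, at 21.1 and 6.22 CPM, fell short of the limit on this scale, but its log2 ratio without added CPM was -1.76 (-2.42 to -1.15). With 1 CPM added, with TMM factors and by Scrublet score, the count lower was 1. From WT-Control to Cd40-/- Control, 0 were higher and 0 lower, against 0.619% and 0.595% of all genes. From WT-Control to Cd40-/- RANKL-Ab, Chat was higher and Ptgs2 lower, against 2.30% and 4.71%. Between the Cd40-/- libraries, Ptgs1 was higher and Ptgs2 lower, against 1.87% and 6.17% of all genes with the antibody. The counts in Cd40-/- RANKL-Ab rest on 62 cells. For that library, without cells that pass another gate, the counts of 1 for Chat and Ptgs2 against WT-Control and for Ptgs1 against Cd40-/- Control were each 0, and so were, without cells that have blood cell marker UMIs, those for Chat and Ptgs2. The count of 1 for Chat in WT-RANKL-Ab was 1 under each alternative run.

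The members' median difference was 0.34, 0.08, 0.47 and 0.30 in these comparisons, against 0.07, 0.08, 0.03 and -0.04 for all genes. Summed, the 9 members made up 3227, 4276, 3305 and 4298 CPM of tuft-like cells. The sum was higher in the library of antibody-treated mice in each genotype, by log2 ratios of 0.41 (0.38 to 0.44) and 0.38 (0.30 to 0.45), while the control libraries differed by 0.03 (-0.01 to 0.08). Much of this was lost without cells that pass another gate, where the ratios were 0.17 (0.13 to 0.20) and 0.13 (0.05 to 0.21). The 12 tuft markers summed higher in the same 2 libraries, and their part in these ratios was not tested.

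**Figure D4:**
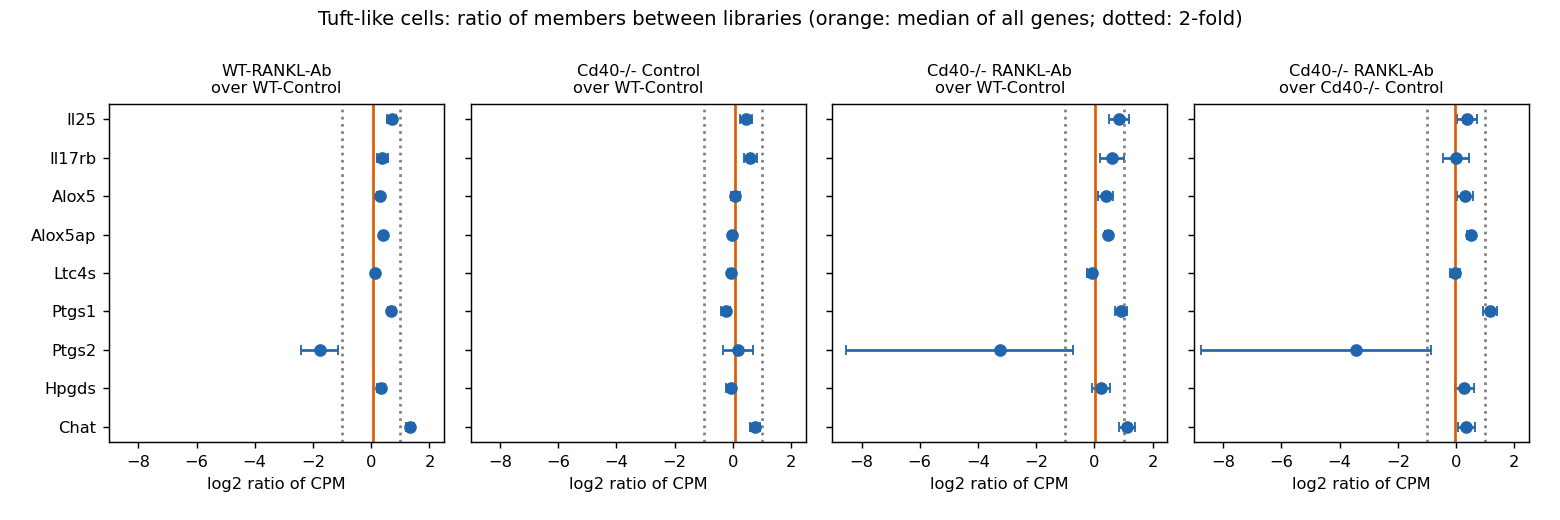
Log2 ratio of each member's CPM in tuft-like cells between 2 libraries, for 4 pairs, with exact 95% intervals for counting error as bars, the median of all genes in orange and 2-fold as dotted lines. Chat lies past 2-fold in WT-RANKL-Ab over WT-Control (1.33), Ptgs1 in Cd40-/- RANKL-Ab over Cd40-/- Control (1.18), and Ptgs2 is to the left of every other member in the 3 pairs with an antibody-treated library.

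Over all cells of a library, the share of tuft-like cells and the level in each of them combine. Chat stood at 7.61, 30.3, 7.83 and 6.58 CPM and Il25 at 6.09, 17.0, 4.81 and 4.65 CPM. WT-RANKL-Ab was the highest library for each member but Ptgs2. Its log2 ratio to WT-Control was 1.99 (1.86 to 2.12) for Chat, 1.48 (1.33 to 1.64) for Il25, 1.34 (1.25 to 1.44) for Ptgs1, 1.23 (1.19 to 1.28) for Alox5ap, 1.09 (0.99 to 1.18) for Alox5, 0.75 (0.59 to 0.91) for Il17rb, 0.57 (0.51 to 0.62) for Ltc4s and 0.31 (0.22 to 0.40) for Hpgds. Tuft-like cells held 5.07% of UMIs in WT-Control and 9.25% in WT-RANKL-Ab, against 2.93% and 2.31% in the Cd40-/- libraries. Such values are relative to all other cells, and Aire+ mTEC-like cells were 24.8% of cells in WT-Control and 2.67% in WT-RANKL-Ab. Per 100 CCL21+ mTEC-like cells, tuft-like cells numbered 14.3 in WT-Control and 17.5 in WT-RANKL-Ab. The part of the missing Aire+ mTEC-like cells in the ratios was not tested.

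Over all cells, the ratios between the Cd40-/- libraries were below the wild-type ones for every member. The log2 ratio of Cd40-/- RANKL-Ab to Cd40-/- Control was -0.05 (-0.41 to 0.29) for Il25 and -0.25 (-0.54 to 0.03) for Chat with all cells, and 0.40 (0.04 to 0.75) and 0.17 (-0.12 to 0.46) without shared barcodes. Ltc4s was at -1.06 (-1.22 to -0.90) and Hpgds at -0.78 (-0.98 to -0.59), and without shared barcodes at -0.68 (-0.84 to -0.51) and -0.52 (-0.73 to -0.31). Il17rb was at -0.58 (-0.92 to -0.26) and -0.45 (-0.83 to -0.09). Ptgs1 was the member with the clearest excess, 0.62 (0.41 to 0.82) with and 1.04 (0.82 to 1.24) without the shared barcodes. Alox5 and Alox5ap were also higher. With all cells, Alox5 was at 11.3 CPM (10.5 to 12.2) in Cd40-/- Control and 13.1 CPM (11.5 to 14.8) in Cd40-/- RANKL-Ab. Alox5ap was at 39.4 CPM (37.9 to 41.0) and 44.7 CPM (41.7 to 47.8). Without shared barcodes, their log2 ratios were 0.62 (0.40 to 0.83) and 0.54 (0.42 to 0.65).

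Ptgs2 was lower with the antibody in both genotypes over all cells. It had 5064, 724, 2800 and 26 UMIs, or 53.1, 14.9, 42.2 and 1.36 CPM. The log2 ratio was -1.84 (-1.95 to -1.72) in wild-type mice and -4.96 (-5.58 to -4.41) in Cd40-/- mice, where it was -4.74 (-5.41 to -4.14) without shared barcodes. Aire+ mTEC-like cells were 24.8%, 2.67%, 18.3% and 0.0961% of cells in the same libraries.

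**Figure D5:**
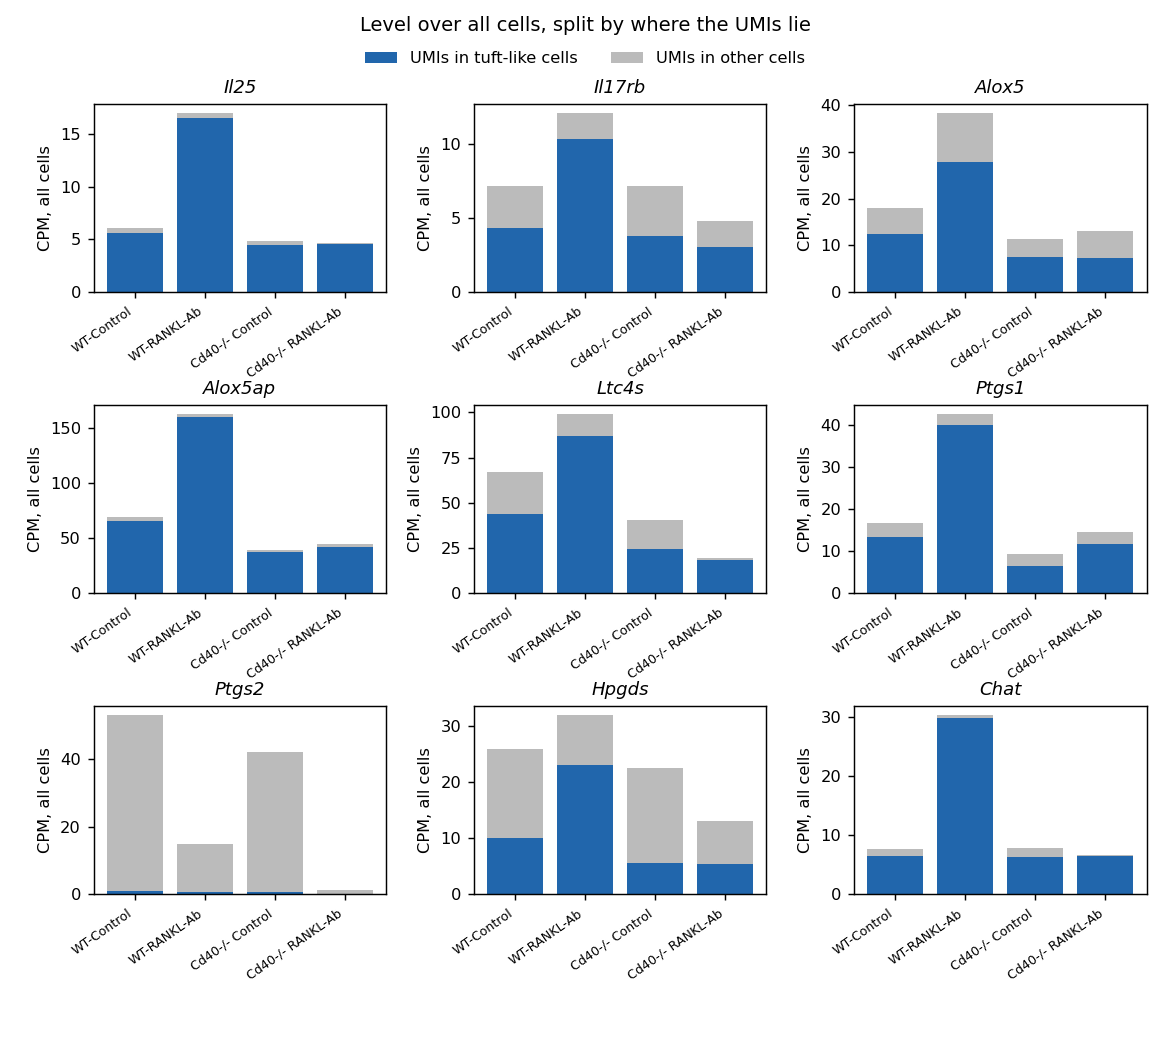
Level of each member over all cells (CPM, linear axes from 0) in the 4 libraries, split into UMIs in tuft-like cells (blue) and in other cells (grey), all barcodes included. WT-RANKL-Ab is highest for 8 members, with nearly all of its Il25, Alox5ap and Chat in tuft-like cells, and Ptgs2 is grey throughout and at 1.36 CPM in Cd40-/- RANKL-Ab.

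Many tuft-like cells had UMIs of more than 1 member. After thinning, 96.0%, 98.1%, 95.2% and 100% of tuft-like cells had a UMI of at least 1 member, and 65.9%, 79.9%, 68.5% and 80.4% of at least 3. The median was 3, 4, 3 and 4 members a cell. Whether members occurred together more often than their separate shares would give was not tested. Tuft-like cells with a UMI of Il25 had one of Alox5ap in 90.2% (92 of 102), 86.3% (132 of 153), 92.6% (50 of 54) and 80.0% (12 of 15) of cases, and those without Il25 in 66.3%, 79.1%, 65.8% and 87.8%. The excess with Il25 was seen in 3 of the 4 libraries, and cells are not replicates, so no test was made. For Chat the shares with and without Il25 were 26.5% and 24.1% in WT-Control, 50.3% and 47.1% in WT-RANKL-Ab, and for the Cd40-/- libraries 46.3% and 30.1% in the control (54 and 219 cells) and 46.7% and 43.9% in the other (15 and 41 cells). The share was higher with Il25 in each library, but by little except in Cd40-/- Control, and this was not tested. Neither Alox5ap nor Chat was read with Il25 after removal of cells that pass another gate.

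Genes whose levels ran most like those of a member across 48 sums of a class in a library were described by Pearson's r of log2(CPM + 1), over sums that share libraries and, for most genes here, owe their range to the tuft-like class. The nearest of 9280 genes are given for each member, 3 for all but Ltc4s. For Il25 they were Rgs21 (r = 0.962), the taste receptor Tas2r104 (0.959) and A630073D07Rik (0.958), and for Il17rb Pik3r5 (0.902), Alox5ap (0.857) and the tuft marker Lrmp (0.852). Alox5 was nearest to Lmo2 (0.866), Kirrel3 (0.860) and the tuft marker Gnat3 (0.856). Alox5ap was nearest to Tas2r105 (0.890), Tas2r113 (0.888) and Rgs21 (0.887), and Ltc4s to Ostf1 (0.923), with Adcy5 (0.906) also among its nearest. Taste receptors thus stood beside Il25 and Alox5ap. For Ptgs1 the nearest were Col4a4 (0.872), Ccdc129 (0.870) and Sh2d7 (0.861), for Hpgds Cables2 (0.829), Slc22a21 (0.811) and Mctp1 (0.811), and for Chat Ccdc129 (0.954), the tuft marker Avil (0.945) and Gm33680 (0.937). Ptgs2 had Gm29461 (0.938), Srgn (0.933), the proteoglycan serglycin, and A630095E13Rik (0.928). Only Il17rb had another member, Alox5ap, among its 3 nearest (0.857).

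Around the members, 54 further genes of the same pathways were listed, 36 for eicosanoids, 14 for type 2 cytokines and 4 for acetylcholine. Past 4-fold higher there than in other cells were 0 of 50 with at least 20 UMIs in WT-Control, 1 of 40 in WT-RANKL-Ab (Mgst3), and, of the Cd40-/- libraries, 0 of 49 in the control and 2 of 33 in the other (Mgst3 and Pla2g4a). Over all genes these shares were 1.10%, 2.21%, 1.27% and 3.03%, and the list lay near them. Mgst3, a microsomal glutathione transferase, was at 696, 606, 568 and 709 CPM in tuft-like cells and 197, 114, 149 and 79.5 CPM in others. Pla2g4a, the phospholipase that releases arachidonic acid, was at 126, 128, 113 and 106 CPM in tuft-like cells, so that its tuft-like level hardly differed between libraries, while other cells were at 120, 43.5, 111 and 9.62 CPM.

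Between libraries, the listed genes past 2-fold in tuft-like cells of antibody-treated mice were mostly lower, as were those among all genes. From WT-Control to WT-RANKL-Ab, 0 of 31 were higher and 2 lower, Ptgds and Il13, against 0.322% and 1.82% of all genes, and the median of the list was -0.25 against 0.07 for all genes. From WT-Control to Cd40-/- RANKL-Ab 0 of 28 were higher and 6 lower, against 2.30% and 4.71%. Between the Cd40-/- libraries 1 of 23 was higher (Ptges2) and 5 lower, against 1.87% and 6.17%. Ptgds, the other prostaglandin D synthase, was at 75.2, 3.56, 104 and 6.78 CPM in tuft-like cells and at 112, 6.16, 68.8 and 0.0534 CPM in other cells. Il13, a type 2 cytokine among the leading genes of Aire+ mTEC-like cells here, was at 32.1, 2.89, 15.9 and 0 CPM in tuft-like cells and at 116, 16.7, 74.0 and 0.534 CPM in others. Both were thus no higher in tuft-like cells than elsewhere in the first 3 libraries, except Ptgds in Cd40-/- Control, and were lower in both places with the antibody. In Cd40-/- RANKL-Ab, Ptgds had 3 UMIs in tuft-like cells and 1 in other cells, too few to compare the places.

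Lipoxygenases other than the 5-lipoxygenase were also among the lower genes. Alox12e was at 105, 47.6, 94.1 and 4.52 CPM in tuft-like cells, the last from 2 UMIs, and at 273, 136, 181 and 29.9 CPM in other cells. Alox15 was at 30.9, 15.1, 15.4 and 6.78 CPM in tuft-like cells. Ache, which breaks down acetylcholine, was at 26.1, 11.1, 23.7 and 2.26 CPM there, the last from 1 UMI, and at 65.1 to 81.3 CPM in other cells. All 3 genes were thus higher outside tuft-like cells. Ptges3, a prostaglandin E synthase that is also a cochaperone, was at 174, 256, 260 and 226 CPM in tuft-like cells and 176 to 323 CPM in others. The peptidase gene Ggt5 was at 34.6, 24.7, 13.9 and 22.6 CPM, the transporter gene Abcc1 at 26.5, 17.1, 30.4 and 13.6 CPM and the prostaglandin transporter gene Slco2a1 at 36.3, 24.7, 55.0 and 40.7 CPM in tuft-like cells.

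Receptors for type 2 cytokines were read in tuft-like cells as well. Il4ra, the shared receptor chain for IL-4 and IL-13, was at 71.1, 95.1, 61.2 and 104 CPM there and at 37.9 to 42.4 CPM in other cells. Il13ra1 was at 101, 128, 74.1 and 94.9 CPM. Both were higher in WT-RANKL-Ab than in WT-Control, by log2 ratios of 0.42 (0.21 to 0.63) and 0.33 (0.16 to 0.51). These ratios, like others of the listed genes, were not read without cells that pass another gate. Tslp, another epithelial cytokine of type 2 responses, was at 25.3, 16.2, 9.26 and 20.3 CPM. Hpgd, which inactivates prostaglandins, was lower in tuft-like cells than elsewhere, at 90.5, 52.2, 66.9 and 45.2 CPM against 185, 329, 273 and 373 CPM.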

How the data were processed

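The authors pooled cells of 3 mice per library, made 10x Genomics libraries (kit version 2 in the labels, 3.1 in the methods), used Fastp to trim reads and mm10 as the genome, and deposited counts, UMIs per gene and called barcode, from Cell Ranger (5.1 in the submitters' processing notes, 5.0.1 in the file headers). From these, cells of 200 or more genes with no more than 25% mitochondrial UMIs were kept, and each was put in the first class whose marker gate it passed. Doublets were kept, with Scrublet scores as an alternative. UMIs were summed per class and library and divided by the summed total of all genes, which gives CPM. With 1 library per condition no test was made, and no p-value is given. Ratios between libraries carry exact conditional binomial intervals, levels exact Poisson intervals and shares Clopper-Pearson intervals, all at 95%. Counts past 2-fold or 4-fold used log2(CPM + 10) and genes whose summed UMIs in the pair reached 20. The scripts were tested on simulated counts.

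The members and lists were chosen with earlier results of these data known. All 9 members were named, the listed pathway genes with at least 20 CPM in tuft-like cells of WT-Control, and the 3 genes most like each member by Pearson's r, of which 1 is not reported here. Slc18a3, and listed genes below that level whose names accompany a count, were named after their values were seen. The alternatives were a stricter gate, Leiden clusters, other cell filters, removal of cells by Scrublet score or blood cell marker UMIs, TMM factors, a mean over cells, another pseudocount and another UMI minimum. Removal of cells that pass another gate and of shared barcodes was added after the data were seen. Positions are from GENCODE M21 on GRCm38 and promoter windows from RefSeq on GRCm38.p6, with entries for 7 of the 9 members. Scanpy 1.11.5, pandas 2.3.3, scipy 1.17.1, matplotlib 3.10.9 and numpy 2.4.6 in Python 3.11.15 and, for TMM factors, edgeR 4.0.16 in R 4.3.3 were used.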

Additional observations from a re-analysis of the deposited data

Results flagged for a closer look

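Over all cells, Il17rb, Ltc4s, Hpgds and the sum of the 9 members had ratios of opposite sign in the 2 genotypes, a difference that was not tested, with 1 library per condition. The log2 ratio of WT-RANKL-Ab to WT-Control was 0.75 for Il17rb, 0.57 for Ltc4s, 0.31 for Hpgds and 0.73 for the sum. The ratio of Cd40-/- RANKL-Ab to Cd40-/- Control was -0.58 for Il17rb, -1.06 for Ltc4s, -0.78 for Hpgds and -0.60 for the sum. Without barcodes shared between libraries, the Cd40-/- ratios were -0.45, -0.68, -0.52 and -0.24, and the wild-type ratios 0.74, 0.58, 0.32 and 0.74. Tuft-like cells held 5.07% and 9.25% of UMIs in the wild-type libraries and 2.93% and 2.31% in the Cd40-/- libraries, and their part in these ratios was not tested.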

How the results depend on the processing

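The count of members past 4-fold higher in tuft-like cells was 8 in every library under each of the 8 alternatives run for it. Of the alternative values of tuft-like ratios, 290 stayed within their interval, 62 left it and 6, of ratios whose interval had excluded 0, reversed, namely Ltc4s in WT-RANKL-Ab over WT-Control without cells that pass another gate (-0.12) and with TMM factors (-0.04), Il25 in Cd40-/- RANKL-Ab over Cd40-/- Control by Scrublet score (-0.02) and without cells that pass another gate (-0.07), and, without those cells, Alox5 in Cd40-/- RANKL-Ab over WT-Control (-0.05) and over Cd40-/- Control (-0.02). In library order, the summed level of the members was 3946, 4799, 3871 and 4716 CPM after removal by Scrublet score and 4433, 4987, 4218 and 4613 CPM without cells that pass another gate. A stricter gate gave 3403 CPM in WT-Control, 3509 in Cd40-/- Control and 4352 in WT-RANKL-Ab, and the mean over cells 3792, 3686 and 4537 CPM in the same order. Leiden clusters gave 3393 CPM in Cd40-/- Control and 4028 in WT-RANKL-Ab, removal of blood cell marker UMIs 3853 in WT-RANKL-Ab, and TMM factors 3526 in WT-Control, 4187 in WT-RANKL-Ab and 4107 in Cd40-/- RANKL-Ab. The share of tuft-like cells was 4.53%, 8.22% and 3.08% in the first 3 libraries by Scrublet score, 3.84%, 7.69% and 2.75% without cells that pass another gate, and 1.70%, 3.75%, 1.65% and 1.37% in the 4 libraries without cells with blood cell marker UMIs. The count of members past 2-fold lower in WT-RANKL-Ab against WT-Control was 1 by Scrublet score, with TMM factors and with 1 CPM added. In Cd40-/- RANKL-Ab against WT-Control the count higher was 0 and the count lower 0 without cells with blood cell marker UMIs and without cells that pass another gate, and the count higher was also 0 with TMM factors and by the mean over cells. Against Cd40-/- Control the count higher was 0 without cells that pass another gate and by the mean over cells, and the count lower 0 with Leiden clusters, without cells with blood cell marker UMIs and at a minimum of 100 UMIs. Causes were not tested, except that a higher UMI minimum leaves fewer genes. No paired analysis was possible because each condition has 1 library, and no replicate could be left out for the same reason. The 62 tuft-like cells of Cd40-/- RANKL-Ab limit the depth most.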
